A study of Mus musculus with 19 samples.

Results

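The genes described here are 9 chemokine receptor genes of the mouse, Cxcr4, Ccr7, Ccr8, Ccr4, Ccr6, Ccr2, Cxcr3, Cxcr5 and Cxcr6. They were taken by symbol from 2 tables of RNA sequencing values, in which all 9 are present, among 14290 genes with values in the first table and 14818 in the second. All 19 libraries come from regulatory T cells (Tregs), a CD4 lineage that holds other immune cells in check, collected as YFP-positive cells from C57Bl/6 mice of the Foxp3-CRE-YFP strain. Cre recombinase is driven in these mice by the promoter of Foxp3, which defines the Treg lineage, so a floxed allele is deleted in Foxp3-expressing cells and the mice keep it elsewhere. Groups called c-Rel-deficient carry floxed c-Rel (gene Rel) and those called p65-deficient floxed p65 (gene Rela), both subunits of the transcription factor NF-kB, while wild-type (WT) groups carry the Cre-YFP allele without them. The stimulated set had 2 libraries of WT Tregs with pentoxifylline at 500 µg/mL, 2 of c-Rel-deficient Tregs and 2 of WT Tregs with the water in which the drug was diluted. All 6 were cultured for 16 hours on anti-CD3 (plates coated at 5 µg/mL), with anti-CD28 (1 µg/mL, soluble) and IL-2 (10 ng/mL). The sorted set had 13 libraries of Tregs taken directly from spleen and lymph nodes and split by surface CD62L and CD44 into activated (aTreg, CD62L low and CD44 high) and resting (rTreg, CD62L high and CD44 low) cells. Its aTreg libraries were 2 c-Rel-deficient, 2 p65-deficient and 3 WT, and its rTreg libraries 2 of each genotype. The age and sex of the mice, and how many mice gave each library, are not given in the sources used here, and p-values therefore measure the spread between these libraries.

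Chemokine receptors are seven-helix proteins of the cell surface that bind secreted chemokines and signal mainly through inhibitory G proteins, which turns the cell towards the source of the ligand. The set of receptors on a Treg decides where it goes: Ccr7 leads into lymph nodes and their T cell zones, Cxcr5 into B cell follicles and Cxcr4 towards Cxcl12 in bone marrow and stroma. Ccr8, Ccr4 and Ccr6 are known on Tregs of skin, mucosa and tumours, and Cxcr3, Ccr2 and Cxcr6 on T cells of inflamed tissue. Resting Tregs are known for the lymph node programme, and activated Tregs for the tissue programmes.

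Values are RPKM, reads scaled to gene length and to the reads of the library, so levels can be compared between genes. The design text states a target depth; read totals are not given in the tables, and relative depths read from the steps of the low values lay between 0.682 and 1 in the stimulated set. Between 9469 and 10317 genes per library reached 1 RPKM. Foxp3 was present in every library, at 107 to 290 RPKM in the stimulated set and 28.1 to 102 RPKM in the sorted set. Rel was 2.44 RPKM in the library labelled c-Rel-deficient replicate 1 and 25.0 RPKM in that labelled replicate 2 of the stimulated set, against 55.1 and 55.8 RPKM with water. In the sorted set Rel was 1.39 to 5.37 RPKM in the 4 c-Rel-deficient libraries and 10.9 to 22.0 RPKM in the 5 WT libraries. Rela was 46.8 to 69.4 RPKM in p65-deficient libraries and 62.3 to 71.5 RPKM in WT sorted libraries; a value over the whole gene does not check the loss of part of it. In bulk RNA, fewer cells that express a receptor and less RNA per cell cannot be told apart. Related receptor genes share stretches of coding sequence, how reads that match several genes were counted is not given in the sources used here, and values of Ccr2 in particular are to that extent uncertain.

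Upstream sequences are shown for 4 of the 9 genes because the groups differ in NF-kB subunits and in a drug known to raise cAMP, and because these 4 hold or lack the letters bound by factors of those pathways. The RefSeq promoter table (GRCm38.p6) holds 8 windows for 7 of the genes, and the 250 bases before the start were searched on both strands for TGACG (the core of the cAMP response element), TGANTCA (the AP-1 site) and a loose kB site (GGG, any 5 bases, CC). Matches are in capitals. Of 32536 windows of this length in the table, 17.9% hold TGACG, 6.73% hold TGANTCA and 46.0% hold the kB letters.
Cxcr4, chr1:128592300-128592549, minus strand: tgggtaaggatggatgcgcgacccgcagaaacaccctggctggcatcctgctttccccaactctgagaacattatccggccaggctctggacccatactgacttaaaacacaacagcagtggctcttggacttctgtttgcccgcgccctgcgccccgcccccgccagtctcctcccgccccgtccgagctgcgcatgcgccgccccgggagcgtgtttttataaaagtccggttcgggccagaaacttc
Ccr8, chr9:120091883-120092132, plus strand: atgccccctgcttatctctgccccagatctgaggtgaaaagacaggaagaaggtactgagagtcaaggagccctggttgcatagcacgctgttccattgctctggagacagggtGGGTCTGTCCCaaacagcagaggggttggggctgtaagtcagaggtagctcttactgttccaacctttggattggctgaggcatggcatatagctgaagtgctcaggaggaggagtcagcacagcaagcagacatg
Ccr6, chr17:8242276-8242525, plus strand: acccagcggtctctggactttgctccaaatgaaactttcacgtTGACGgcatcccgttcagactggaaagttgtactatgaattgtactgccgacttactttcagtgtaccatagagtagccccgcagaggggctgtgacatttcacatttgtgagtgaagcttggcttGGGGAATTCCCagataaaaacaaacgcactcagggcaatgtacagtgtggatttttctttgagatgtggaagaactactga
Cxcr6, chr9:123806227-123806476, plus strand: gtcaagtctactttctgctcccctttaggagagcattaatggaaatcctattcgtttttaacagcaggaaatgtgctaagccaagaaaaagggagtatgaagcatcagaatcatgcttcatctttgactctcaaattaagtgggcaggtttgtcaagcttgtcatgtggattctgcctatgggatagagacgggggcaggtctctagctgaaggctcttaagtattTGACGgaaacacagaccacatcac
The Cxcr4 window holds none of the 3 motifs. Ccr8 and Ccr6 each hold a stretch that matches the kB letters on both strands, offset by 1 base, so that 2 overlapping matches form 1 run of capitals, and Ccr6 and Cxcr6 each hold 1 TGACG. Among the windows not printed, Cxcr3 holds 1 kB match, Ccr4 holds 1 AP-1 match (TGAGTCA), and the window of Ccr2 and the other window of Ccr6 hold none. The kB letters were thus in 3 of 8 windows, against 46.0% of all windows. These are letter matches in a short window and say nothing of binding.

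Pentoxifylline, a phosphodiesterase inhibitor, is the chemical inhibition named in the series title. In stimulated WT Tregs with the drug, 3 receptors rose (Cxcr4, Ccr2 and Ccr7) and 4 fell (Ccr8, Cxcr5, Cxcr6 and Ccr6), while Ccr4 and Cxcr3 did not pass the test. The test was limma on log2(RPKM + 0.5) over the 9945 genes that reached 1 RPKM in 2 or more libraries, called at a Benjamini-Hochberg adjusted p under 0.05. It called 43.5% of all genes tested in this comparison, so 7 of 9 receptors is to be read against a background in which calls were common. The median log2 difference was -0.68 over the 9 receptors and 0.00 over all genes tested. By the authors' deposited table, 22.7% of genes and 7 of 9 receptors pass at the same threshold, 2 higher (Cxcr4 and Ccr7) and 5 lower (Ccr8, Ccr4, Ccr6, Cxcr5 and Cxcr6).

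Cxcr4 (chromosome 1, 128588199 to 128592299, minus strand, GRCm38) moved most. It was at 258 and 178 RPKM in the pentoxifylline libraries and at 49.8 and 51.0 RPKM in the water libraries. Both drug libraries lay far above both water libraries, a log2 difference of 2.08 (SE 0.19, limma adjusted p = 0.000636). Ccr7 (chromosome 11, 99144199 to 99155077), the receptor for Ccl19 and Ccl21 at lymph node entry, was at 639 and 623 RPKM with the drug and at 285 and 364 RPKM with water. It was the most abundant of the 9 receptors in all 3 stimulated groups, and the difference was 0.97 (SE 0.31, limma adjusted p = 0.0377). Ccr2 (chromosome 9, 124101918 to 124109140, plus strand), the receptor for Ccl2 that is best known on monocytes, was at 40.0 and 35.2 RPKM with the drug and at 20.7 and 11.1 RPKM with water. Its groups did not overlap (log2 difference 1.28, SE 0.29, limma adjusted p = 0.0107), but its adjusted p in the authors' deposited table was 0.137 with a log2 fold change of 1.03. Summed over 10 myeloid and dendritic marker genes, RNA was 11.7 and 22.6 RPKM with the drug and 6.25 and 20.7 RPKM with water, with Fcgr1 and Siglech at or under 0.1 RPKM in all 6 libraries. Within these sums Zbtb46 was at 9.07 and 10.4 RPKM with the drug and at 4.45 and 4.09 RPKM with water. S100a8 and S100a9 were at 4.45 and 5.76 RPKM in drug replicate 2 and at 5.28 and 7.26 RPKM in water replicate 2. In replicate 1 of either group both were at most 0.735 RPKM. The part of such cells in the Ccr2 values was not tested.

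Ccr8 (chromosome 9, 120092133 to 120094906, plus strand), the receptor for Ccl1, was the second most abundant receptor with water. It was at 83.7 and 110.1 RPKM in the pentoxifylline libraries, against 205 and 351 RPKM in the water libraries. The groups did not overlap, although the water libraries differed from each other by more than the drug libraries did (log2 difference -1.48, SE 0.32, limma adjusted p = 0.00938). Ccr6 (chromosome 17, 8236041 to 8258519, plus strand), the receptor for Ccl20, was at 6.60 and 11.0 RPKM with the drug and at 18.8 and 16.2 RPKM with water (-0.99, SE 0.33, limma adjusted p = 0.0456). Ccr4 (chromosome 9, 114490316 to 114505476, minus strand), the receptor for Ccl17 and Ccl22, was at 40.4 and 78.0 RPKM with the drug and at 83.0 and 97.6 RPKM with water. Ccr4 was lower in both drug libraries, but they lay far apart, and it missed the threshold in limma (-0.68, SE 0.30, adjusted p = 0.109) while the authors' deposited table gives -0.93 with an adjusted p of 0.000279.

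Cxcr5 (chromosome 9, 44511787 to 44526444), the receptor for Cxcl13, was at 4.43 and 5.33 RPKM with pentoxifylline and at 15.2 and 10.9 RPKM with water. It was the least abundant receptor of the stimulated set, and it fell by 1.32 on the log2 scale (SE 0.20, limma adjusted p = 0.00243). Cxcr6 (chromosome 9, 123806477 to 123811754, plus strand), the receptor for the membrane-bound chemokine Cxcl16, was at 5.81 and 15.1 RPKM with the drug and at 18.2 and 25.6 RPKM with water (-1.16, SE 0.39, limma adjusted p = 0.0480). Cxcr3 (chromosome X, 101731535 to 101734147, minus strand), the receptor for the interferon-induced chemokines Cxcl9, Cxcl10 and Cxcl11, was at 25.8 and 44.2 RPKM with the drug and at 38.7 and 40.8 RPKM with water. The Cxcr3 groups overlapped, since drug replicate 2 was above both water libraries (-0.23, SE 0.26, limma adjusted p = 0.492). In 8 of 9 receptors the drug and water libraries did not overlap, as was the case for 75.5% of all genes tested.

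The 7 calls were not equally firm. Cxcr4 and Cxcr5 passed under all 12 other settings tried, with log2 differences of 1.81 to 2.35 for Cxcr4 and -1.55 to -1.09 for Cxcr5. The Cxcr6 call held in 6 of 12 settings and was also lost with a pseudocount of 0.1, with no filter and with median-of-ratios scaling. Without pentoxifylline replicate 1 only these 2 receptors passed, without water replicate 2 they and Ccr2 did, and without water replicate 1 they, Ccr2 and Ccr8 did. Ccr7 also missed the threshold without pentoxifylline replicate 2.

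**Figure D1:**
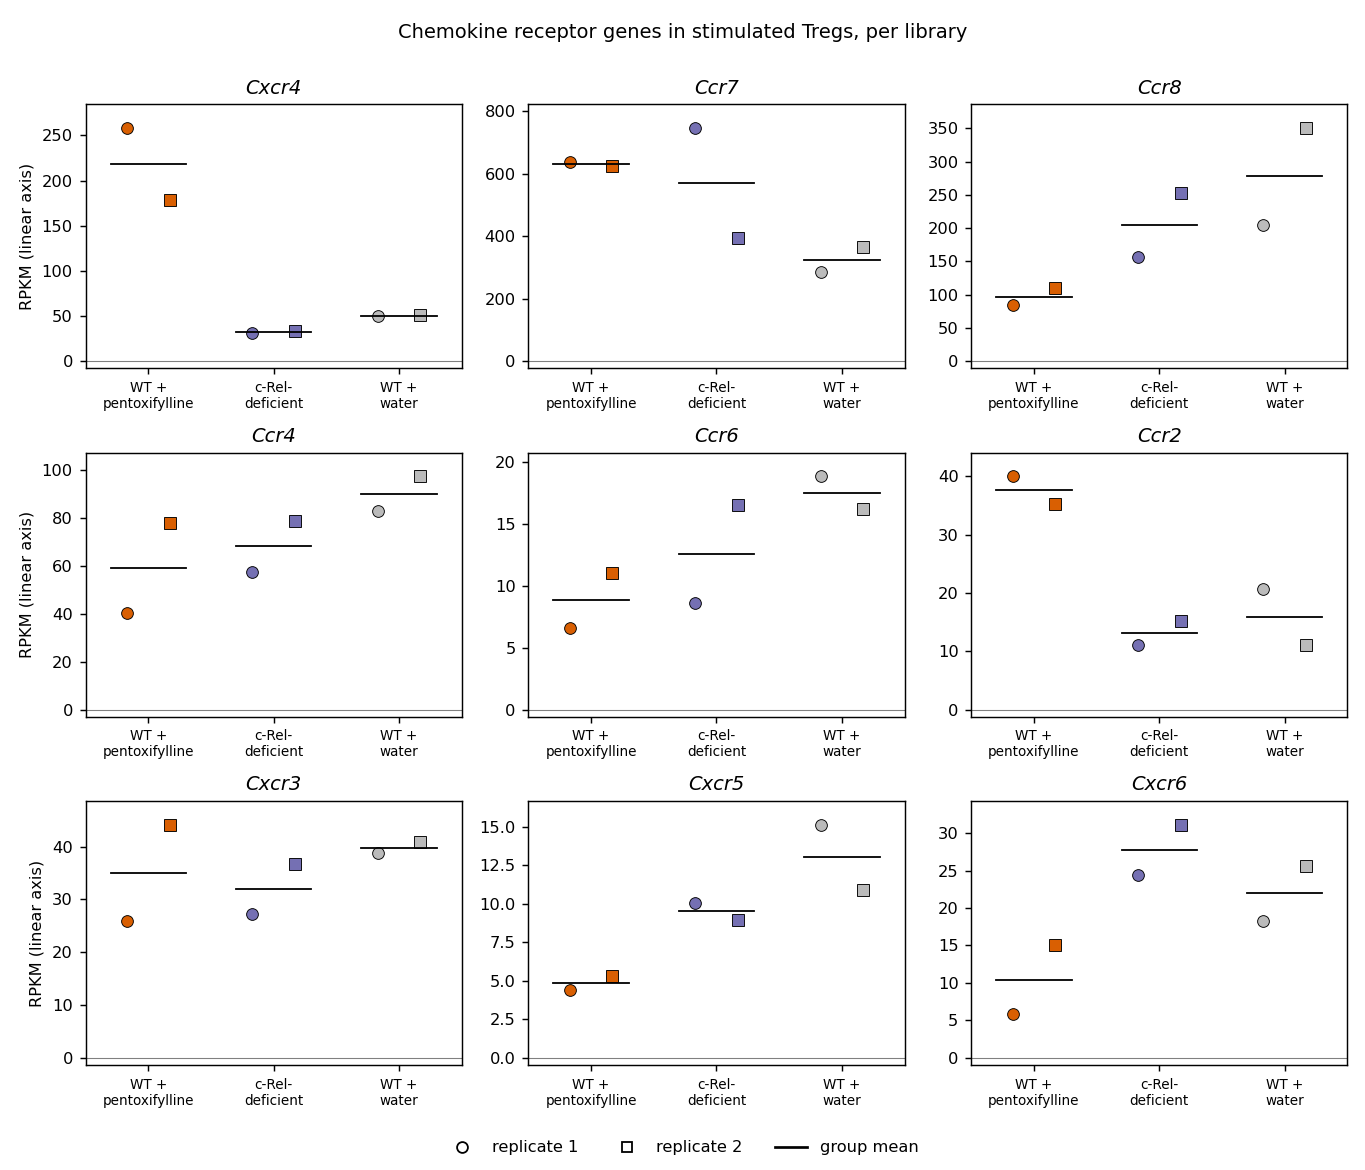
RPKM of the 9 receptor genes in the 6 stimulated libraries (linear axes, 1 panel a gene), with circles and squares for replicates 1 and 2 and a line at each group mean. Pentoxifylline libraries of Cxcr4 sit at 178 and 258 RPKM, far above the other 4, and those of Ccr8 at 83.7 and 110.1 RPKM, below the other 4.

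The genetic counterpart is the loss of c-Rel in stimulated Tregs, set against WT Tregs with water. The titles of the c-Rel-deficient libraries name no water, so effects of genotype and of added water cannot be told apart in this comparison. No receptor passed in limma, which called 0% of all genes in this comparison (0 of 9945, with 791 at an unadjusted p under 0.05), while the authors' deposited table calls 2.14% of genes and, among the receptors, Ccr7. Ccr7 was at 747 and 394 RPKM in the libraries labelled c-Rel-deficient, against 285 and 364 RPKM with water. The higher value is that of replicate 1, which stands apart from the other 5 stimulated libraries in some markers. Foxp3 was 107 RPKM (193 to 290 RPKM in the others), Ikzf2 49.3 RPKM (91.9 to 117 RPKM), Tcf7 459 RPKM (129 to 207 RPKM) and Eomes 19.0 RPKM (0.403 to 2.09 RPKM). Eomes is one of the NK and cytotoxic markers, of which Klrb1c, Gzma and Prf1 were within the range of the other 5 libraries. In replicate 1 Klrb1c was 0.0759 RPKM (0.0183 to 0.175 RPKM in the others), Gzma 0.228 RPKM (0.122 to 0.840 RPKM) and Prf1 5.45 RPKM (2.79 to 6.20 RPKM). The part of such marker differences in the Ccr7 value was not tested. Without replicate 1 the log2 difference of Ccr7 was 0.29. Both c-Rel-deficient libraries were above both water libraries, but replicate 2, in which Rel remained at 25.0 RPKM, by only a small margin (log2 difference 0.75, SE 0.31, limma adjusted p = 0.602). In the authors' deposited table Ccr7 had a log2 fold change of 1.01 (adjusted p = 0.000513). Cxcr4 was at 31.2 and 33.5 RPKM in c-Rel-deficient libraries and at 49.8 and 51.0 RPKM with water. The Cxcr4 replicates were close to each other in both groups (-0.63, SE 0.19, unadjusted p = 0.0106, limma adjusted p = 0.457). Of the remaining 7, Ccr4, Cxcr3 and Cxcr5 were lower in both c-Rel-deficient libraries than in either water library, with log2 differences between -0.42 and -0.32 and limma adjusted p-values between 0.662 and 0.792. Ccr6, Ccr8, Ccr2 and Cxcr6 overlapped. Non-overlap was seen in 5 of 9 receptors and in 40.5% of all genes tested. Without the library labelled c-Rel-deficient replicate 2, limma called 284 genes in place of 0, none of them a receptor.

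Set directly against each other, pentoxifylline-treated and c-Rel-deficient Tregs differed in 5 receptors, in a comparison in which limma called 48.4% of all genes. Cxcr4 was higher with the drug by 2.71 on the log2 scale (SE 0.19, limma adjusted p = 0.000298), the drug libraries being above the water level and the c-Rel-deficient libraries below it. Ccr2 was also higher with the drug, at 40.0 and 35.2 RPKM against 11.0 and 15.1 RPKM in c-Rel-deficient Tregs (1.50, SE 0.29, limma adjusted p = 0.00488). The summed myeloid and dendritic markers were at 11.7 and 22.6 RPKM with the drug against 1.26 and 2.82 RPKM in c-Rel-deficient Tregs. Of these sums Zbtb46 alone made 9.07 and 10.4 RPKM with the drug against 1.09 and 2.63 RPKM. Lyz2, S100a8 and S100a9 were also higher in both drug libraries, S100a8 at 0.735 and 4.45 RPKM against 0 RPKM. Csf1r, Itgam, Cd14, Fcgr1, Itgax and Siglech were at most 0.416 RPKM in any library of the 2 groups. The part of such cells in the Ccr2 difference was not tested. Cxcr6 was lower with the drug, at 5.81 and 15.1 RPKM against 24.4 and 31.1 RPKM (-1.50, SE 0.39, limma adjusted p = 0.0175). Ccr8 was at 83.7 and 110.1 RPKM with the drug against 157 and 254 RPKM (-1.05, SE 0.32, limma adjusted p = 0.0296), and Cxcr5 at 4.43 and 5.33 RPKM against 10.1 and 8.93 RPKM (-0.90, SE 0.20, limma adjusted p = 0.00867). Ccr7 did not pass (0.22, SE 0.31, limma adjusted p = 0.581), with the drug libraries at 639 and 623 RPKM inside the range of the c-Rel-deficient libraries at 747 and 394 RPKM. Without the library labelled c-Rel-deficient replicate 2, Ccr8 and Cxcr6 missed the threshold, and without pentoxifylline replicate 1 Ccr8 did. These comparisons share libraries: the drug and the c-Rel-deficient groups were each set against the same 2 water libraries.

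Genes that work with the receptors were described from lists of ligands, signalling components and regulators. Of 16 ligands of the 9 receptors 8 were listed in the stimulated table and 4 were expressed enough to be tested. With pentoxifylline 3 of these 4 were called lower (Ccl1, Ccl22 and Ccl20) and 1 higher (Cxcl10), beside 43.5% of all genes called. Ccl1, Ccl22 and Ccl20 bind Ccr8, Ccr4 and Ccr6. These receptors were also lower in both drug libraries, although Ccr4 missed the threshold in limma. Ccl1 was listed at 0 and 0.265 RPKM with the drug and at 5.25 and 29.6 RPKM with water (limma adjusted p = 0.00253). Ccl22 was at 0.0636 and 0.703 RPKM with the drug, at 0.0276 and 0.444 RPKM in c-Rel-deficient Tregs and at 7.77 and 30.2 RPKM with water. Its fall with the drug was called by limma (-4.28, SE 0.65, adjusted p = 0.00251), and its low level in c-Rel-deficient Tregs by the authors' deposited table (-5.35, adjusted p = 9.76e-23), not by limma (-4.50, SE 0.65, adjusted p = 0.261). Ccl20 was at 0.144 and 0.336 RPKM with the drug, at 14.2 and 29.0 RPKM in c-Rel-deficient Tregs and at 9.38 and 7.17 RPKM with water, so that the drug and the loss of c-Rel lay on opposite sides of water. Cxcl10, a ligand of Cxcr3, rose with the drug (0.87, SE 0.27, limma adjusted p = 0.0358), while Cxcr3 did not pass.

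Of 12 transcription factors known to act on receptor genes, 4 rose and 5 fell with pentoxifylline, beside 43.5% of all genes called. Klf2, a factor of the lymphoid homing programme, was at 587 and 533 RPKM with the drug against 153 and 142 RPKM with water (log2 difference 1.92, SE 0.17, limma adjusted p = 0.000646), and Foxo1, which acts in the same programme and on Ccr7, also rose (0.72, SE 0.13, limma adjusted p = 0.00424). Tbx21, which encodes T-bet and is known to drive Cxcr3, was at 1.51 and 3.36 RPKM with the drug against 22.2 and 38.8 RPKM with water (-3.42, SE 0.36, limma adjusted p = 0.000806), while Cxcr3 itself did not pass. Irf4, a factor of activated Tregs, was at 21.6 and 34.0 RPKM with the drug against 103 and 134 RPKM with water (-2.10, SE 0.29, limma adjusted p = 0.00178). Bcl6, known to go with Cxcr5 in follicular T cells, rose (1.60, SE 0.29, limma adjusted p = 0.00463), whereas Cxcr5 fell. Among 35 tested genes of receptor signalling, 10 rose and 4 fell, a share near the 43.5% called over all genes, with a median log2 difference of 0.20 against 0.00 over all genes. Rgs2, a brake on G protein signalling, was at 267 and 189 RPKM with the drug against 27.1 and 22.1 RPKM with water (3.17, SE 0.36, limma adjusted p = 0.00104). Rgs16 of the same family went the other way, at 16.5 and 19.7 RPKM with the drug against 78.8 and 109.6 RPKM with water (-2.33, SE 0.18, limma adjusted p = 0.000528). The G protein gene Gna13 (1.46, SE 0.19, limma adjusted p = 0.00163) and Rasgrp2, an exchange factor in integrin activation (1.24, SE 0.38, limma adjusted p = 0.0342), also rose. In c-Rel-deficient Tregs limma called none of the 35 signalling genes and none of the 12 factors, while the authors' deposited table calls 3 of the 12 factors higher and 2 lower, and 1 signalling gene higher and 1 lower. Between the drug and the loss of c-Rel, limma called 5 factors higher and 3 lower, and 10 of 35 signalling genes higher and 5 lower, beside 48.4% of all genes called.

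Further chemokine receptors were few. Of 15 others looked for, 10 were listed in the stimulated table and 5 were tested. With pentoxifylline 1 of these was called, beside 43.5% of all genes. It was Ccr3, at 2.36 and 2.70 RPKM with the drug against 0.880 and 0.736 RPKM with water (1.21, SE 0.26, limma adjusted p = 0.00929). Ccrl2, which binds chemerin and does not signal as a chemokine receptor, was at 11.1 and 10.0 RPKM with the drug against 5.21 and 4.99 RPKM with water (0.98, SE 0.37, limma adjusted p = 0.0695). Ccr1 reached 1.61 and 1.63 RPKM in c-Rel-deficient Tregs, against 0.823 and 1.11 RPKM with water, and Cx3cr1 was at 1.07 and 1.40 RPKM with the drug against 1.33 and 1.07 RPKM with water; neither was called in these comparisons. Between the drug and the loss of c-Rel, Ccr3 and Ccrl2 were called higher with the drug and Ccr1 lower, beside 48.4% of all genes called.

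Sorted values, as deposited, were adjusted by replicate number, which bears on how each level there can be read. Of the 117 values of the 9 receptors 3 lie below 0. For every gene in which several libraries of the same replicate number share an identical value, that value is the lowest of the number, in 1916 of 1916 genes for number 1 and 1770 of 1770 for number 2. Gene means were nearly equal between the numbers, within 0.927 to 1.08 times the overall mean for the central 98% of genes above 5 RPKM. Number 3 holds 2 aTreg libraries and no rTreg library, so equal means place its aTreg values near the middle of the rTreg and aTreg values of the other numbers. The receptors show this: Ccr7 averaged 268, 256 and 252 RPKM over the libraries numbered 1, 2 and 3, and Ccr8 averaged 39.7, 37.2 and 39.2 RPKM. Receptors that are low in resting cells have a floor set by the number: the 3 rTreg libraries numbered 1 had Cxcr6 at 16.2 to 16.5 RPKM and the 3 numbered 2 at -3.37 to -2.62 RPKM, whatever the genotype. Ccr4, Ccr2 and Cxcr3 behaved alike, and levels of these 4 genes in rTregs are therefore not readable on their own. Values of Cxcr4, Ccr8 and Cxcr5 in rTregs also separated by number whatever the genotype, and their levels carry the same limit. Cxcr4 was at 74.8 to 85.2 RPKM in number 1 and 94.5 to 97.1 RPKM in number 2. Ccr8 was at 5.29 to 9.36 and 11.3 to 15.3 RPKM, and Cxcr5 at 11.9 to 16.0 and 6.63 to 9.77 RPKM. Only Ccr7 and Ccr6 overlapped between the numbers. An offset added alike to the libraries of a number cancels in differences between them, and these differences are given beside each comparison. Whether the adjustment also changed the scale of a number is not described and was not tested, so the sizes of these differences may depend on it.

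In WT cells, activated Tregs had more RNA of 7 receptors than resting Tregs in both replicate numbers, and less of Ccr7, while Cxcr4 differed in sign between the numbers. The share of all genes with the same sign in both numbers was not counted, so such counts have no background. Limma on all 13 libraries (10656 genes tested, values below 0 set to 0) called 4 receptors higher (Cxcr3, Ccr8, Ccr6 and Cxcr5) and 1 lower (Ccr7), with 12.2% of all genes called. The median log2 difference was 2.07 over the 9 receptors and -0.06 over all genes tested. The authors' deposited table calls 7 higher and Ccr7 lower, with 11.2% of genes called. An unlogged fit with replicate number as a term, chosen after the offset was seen, called 6 higher and 1 lower, with 17.8% of genes called. On the log scale with replicate number as a block, 7 were called higher (all but Cxcr4) and Ccr7 lower, with 19.5% of genes called.

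Ccr7 was at 62.9, 104 and 202 RPKM in WT aTregs (numbers 1, 2 and 3) and at 420 and 274 RPKM in WT rTregs. It was lower in aTregs in both shared numbers, with differences of -357 RPKM in number 1 and -169.8 RPKM in number 2, a log2 difference of -1.62 (SE 0.44, limma adjusted p = 0.0414). It was still the most abundant of the 9 receptors in every sorted group by its mean, although in WT aTregs its SD of 71.3 RPKM covers its distance to Cxcr3 and Cxcr4. The Ccr7 call was lost on leaving out any of 7 libraries, among them WT rTreg replicate 1 and WT aTreg replicates 1 and 2, and with no filter, with adjusted p-values between 0.00303 and 0.180 over 20 settings.

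Ccr8 was at 104, 71.3 and 62.7 RPKM in WT aTregs and at 8.69 and 12.98 RPKM in WT rTregs. All 3 aTreg libraries lay far above both rTreg libraries, within numbers by 94.99 and 58.3 RPKM (log2 difference 2.81, SE 0.42, limma adjusted p = 0.00790), and the call stood in all 20 other settings. Ccr6 was at 57.6, 44.6 and 19.7 RPKM in aTregs and at 9.93 and 9.12 RPKM in rTregs (1.91, SE 0.36, limma adjusted p = 0.0179), higher by 47.6 and 35.5 RPKM within numbers. Ccr4 was at 44.6, 54.3 and 34.8 RPKM in aTregs and at 15.9 and 1.32 RPKM in rTregs. It was higher by 28.7 RPKM in number 1 and 53.0 RPKM in number 2, and it missed the threshold on the log scale, where its rTreg values lay far apart (3.02, SE 1.11, limma adjusted p = 0.0922); with the number as a term in the unlogged fit it was called (43.6 RPKM, SE 8.70, adjusted p = 0.0160).

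Cxcr3 was at 172, 113 and 56.5 RPKM in WT aTregs and at 23.8 and 8.10 RPKM in WT rTregs. It was the second most abundant receptor in aTregs, higher than in rTregs by 148 RPKM in number 1 and 105 RPKM in number 2 (log2 difference 2.85, SE 0.63, limma adjusted p = 0.0251). Cxcr5 was at 49.3, 41.0 and 21.5 RPKM in aTregs and at 12.8 and 9.46 RPKM in rTregs, higher by 36.5 and 31.5 RPKM within numbers (1.63, SE 0.36, limma adjusted p = 0.0255). Since B cells carry Cxcr5 and Ccr6, the summed RNA of 8 B cell markers is given: 15.7 to 24.4 RPKM in WT aTregs against 15.3 to 18.8 RPKM in WT rTregs. Their part in these receptors was not tested.

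Ccr2 was at 33.3, 29.2 and 3.06 RPKM in WT aTregs and at 8.62 and 0.957 RPKM in WT rTregs. Within numbers it was higher by 24.7 and 28.3 RPKM, while aTreg replicate 3 lay between the rTreg values, and on the log scale it was not called (2.07, SE 1.20, limma adjusted p = 0.250). With the number as a term in the unlogged fit Ccr2 was called (26.2 RPKM, SE 1.74, adjusted p = 0.000500). Of the 9 receptors it had the largest fold change by the authors' deposited table (log2 5.44, adjusted p = 3.33e-43). Cxcr6 was at 62.4, 16.4 and 16.9 RPKM in aTregs and at 16.5 and -3.36 RPKM in rTregs, higher by 45.9 and 19.7 RPKM within numbers but not called by limma without the number (3.18, SE 1.90, adjusted p = 0.265). It was called with the number as a block on the log scale (3.90, SE 0.97, limma adjusted p = 0.0247) and not in the unlogged fit (48.5 RPKM, SE 22.1, adjusted p = 0.165). Cxcr4 was at 92.0, 93.6 and 110.0 RPKM in aTregs and at 74.8 and 94.5 RPKM in rTregs. The Cxcr4 groups overlapped, with a difference of 17.2 RPKM in number 1 and -0.888 RPKM in number 2 (0.22, SE 0.19, limma adjusted p = 0.441).

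Of the 5 called receptors only Ccr8 passed on leaving out WT aTreg replicate 1 or WT aTreg replicate 2. On leaving out WT rTreg replicate 1 the number called was 2, and on leaving out WT rTreg replicate 2 it was 3. Without both libraries numbered 3 the counts were 4 higher and 1 lower. In 6 of 9 receptors WT aTreg and rTreg libraries did not overlap, against 40.9% of all genes tested.

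**Figure D2:**
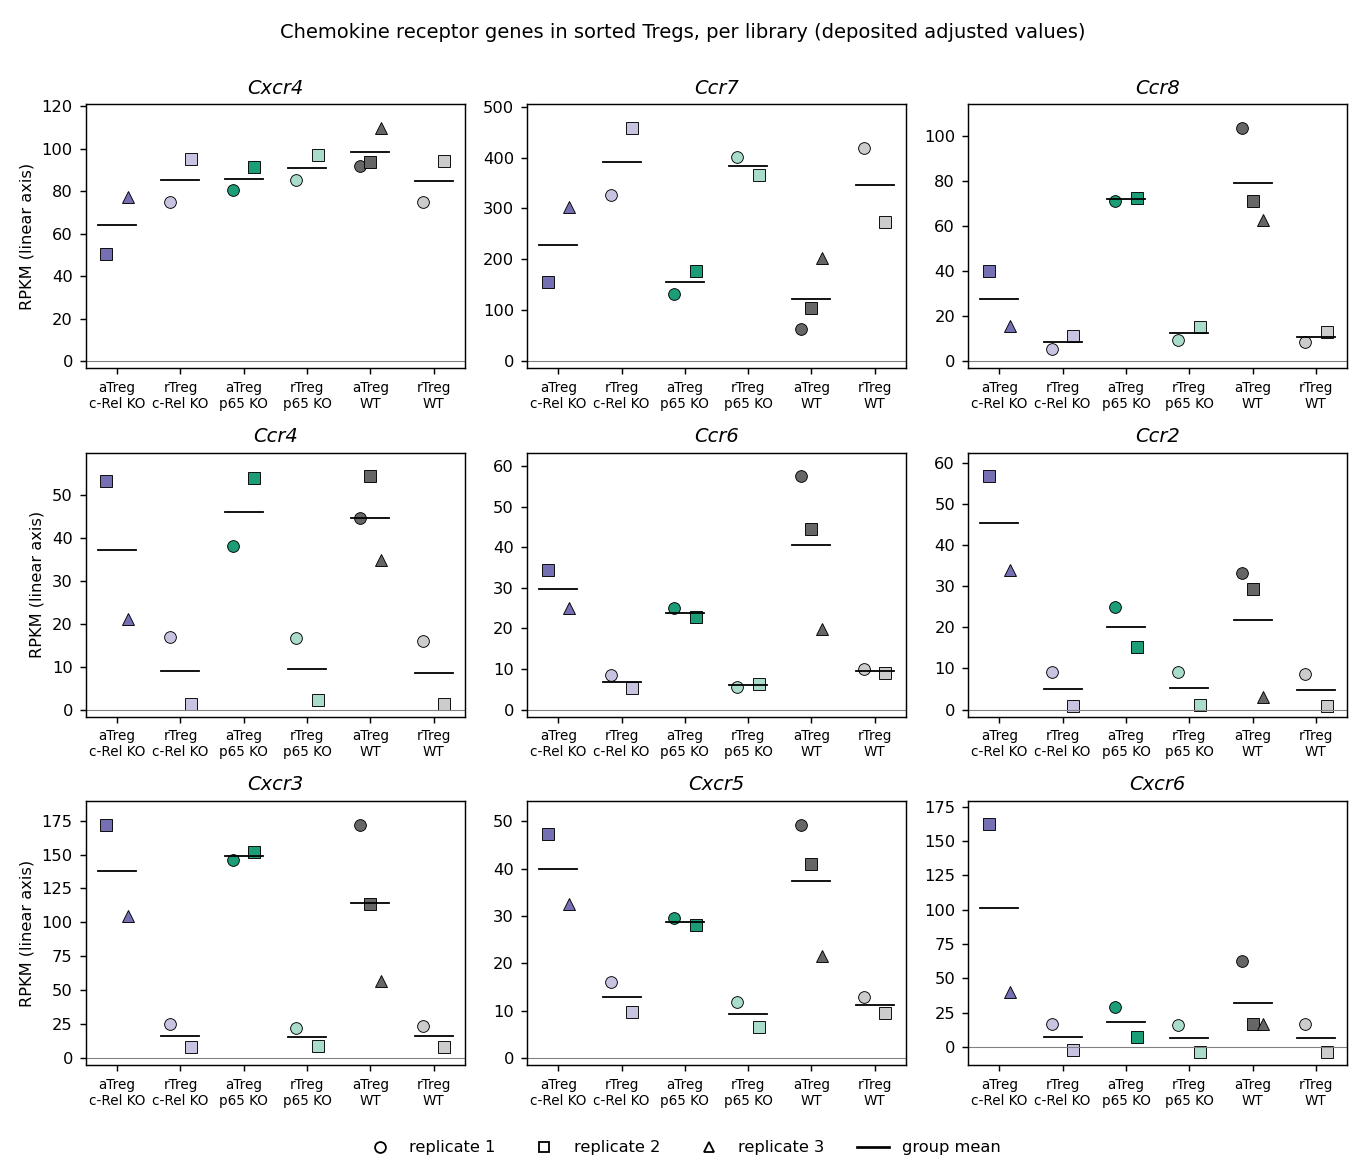
Deposited RPKM of the 9 receptor genes in the 13 sorted libraries (linear axes, 1 panel a gene), with circles, squares and triangles for replicate numbers 1, 2 and 3 and a line at each group mean. Ccr7 is lower and Ccr8, Ccr6, Cxcr3 and Cxcr5 are higher in aTregs than in rTregs of every genotype. The rTreg values of all receptors but Ccr7 and Ccr6 separate by replicate number.

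**Figure D3:**
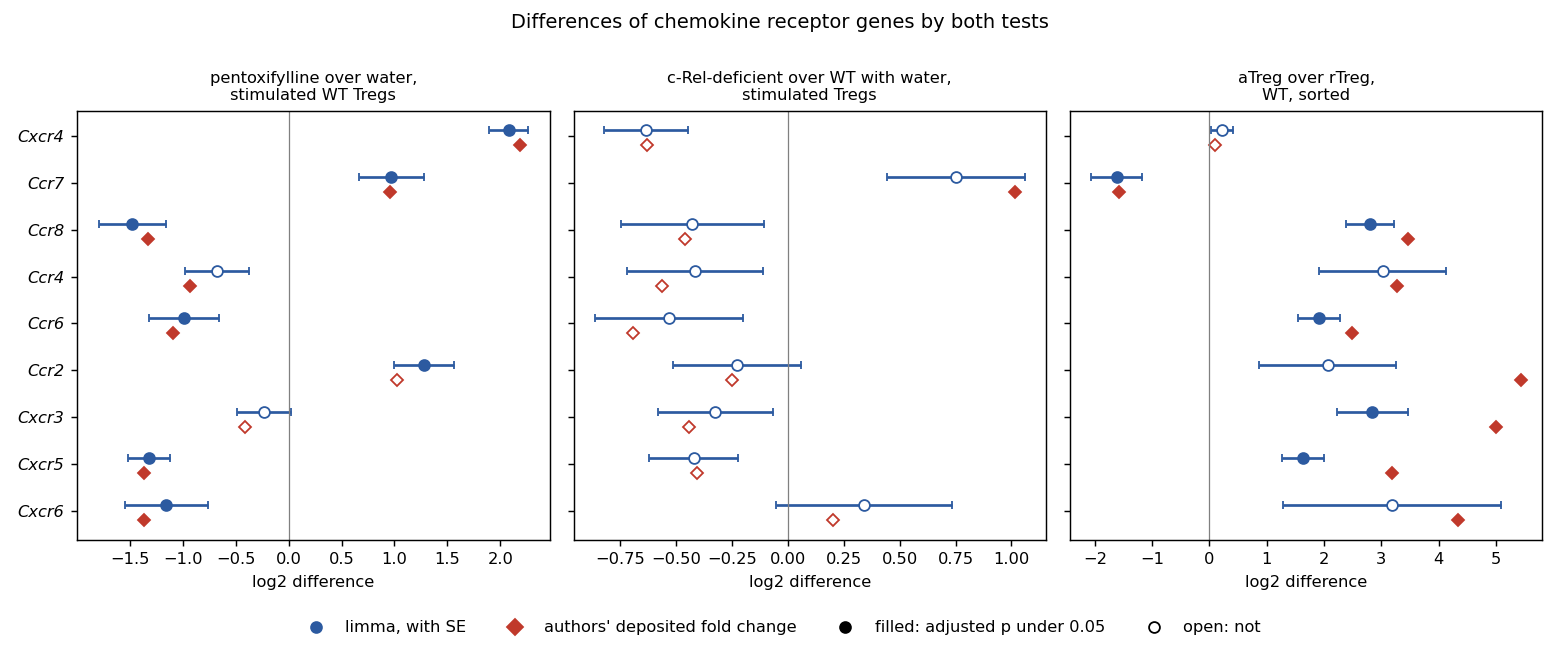
Log2 differences of the 9 receptors in 3 comparisons, with different scales along the x axes. Circles with bars are limma estimates with SE, diamonds the authors' deposited fold changes, and filled symbols have an adjusted p under 0.05. Both point the same way for each receptor, and the authors' fold changes for WT aTregs over rTregs are larger for Ccr2 (5.44 against 2.07) and Cxcr3 (5.01 against 2.85).

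The same contrast was taken without p65 and without c-Rel. In p65-deficient cells limma called Cxcr3 (log2 difference 3.35, SE 0.69, adjusted p = 0.0294), Ccr6 (1.92, SE 0.40, adjusted p = 0.0303) and Ccr8 (2.54, SE 0.46, adjusted p = 0.0195) higher in aTregs, with 3.17% of all genes called. The p65-deficient aTreg and rTreg libraries did not overlap in 7 receptors and in 64.2% of all genes. All 3 calls were lost on leaving out any of the 4 p65-deficient libraries. With replicate number as a block 4 were called higher (Cxcr3, Cxcr5, Ccr6 and Ccr8) and Ccr7 lower, with 6.86% of genes called. Within numbers 7 receptors were higher in aTregs in both pairs, and Ccr7 and Cxcr4 lower in both, Ccr7 by 269 and 189 RPKM and Cxcr4 by 4.80 and 5.62 RPKM. In c-Rel-deficient cells limma called 0% of all genes (0 of 10656, with 1494 at an unadjusted p under 0.05) and no receptor, and the authors' fold changes used here include no such comparison. With replicate number as a block, limma called 8.46% of genes (901) and 8 receptors, 6 higher (among them Cxcr3, limma adjusted p = 0.00117, and Cxcr6, limma adjusted p = 0.00986) and 2 lower (Ccr7, limma adjusted p = 0.0292, and Cxcr4, limma adjusted p = 0.0399). The c-Rel-deficient aTreg and rTreg libraries did not overlap in 8 receptors and in 52.0% of all genes. Number 2 is the only number with both subsets, and both of its libraries stand apart. The c-Rel-deficient rTreg library numbered 2 had Foxp3 at 28.1 RPKM and the Treg marker Ikzf2 at 4.35 RPKM, against 64.0 to 97.5 RPKM and 18.5 to 47.0 RPKM in the other rTreg libraries, and Tcf7, a factor of naive T cells, at 836 RPKM against 408 to 527 RPKM. The c-Rel-deficient aTreg library numbered 2 had the NK cell gene Klrb1c at 25.0 RPKM, against at most 3.60 RPKM in the other aTreg libraries. Its Gzma, also an NK and cytotoxic marker, was at 0.439 RPKM, inside the 0.363 to 1.44 RPKM of the other aTreg libraries. The part of these markers in the receptor values was not tested, and without either library no pair is left; limma without the number then called no gene and no receptor. In that pair Cxcr6 was higher in aTregs by 165 RPKM, Cxcr3 by 164 RPKM, Ccr2 by 55.9 RPKM, Ccr4 by 52.0 RPKM, Cxcr5 by 37.5 RPKM, Ccr6 by 29.0 RPKM and Ccr8 by 28.7 RPKM, and Ccr7 lower by 304 RPKM and Cxcr4 by 44.6 RPKM. The same 7 receptors were higher and Ccr7 was lower in aTregs in all 5 pairs of the 3 genotypes, and in the 4 pairs without this one. How many of all genes keep the same sign over these pairs was not counted. The test of whether the aTreg to rTreg difference itself differed from WT called 0% of genes for p65 and 0% for c-Rel (237 and 497 genes at an unadjusted p under 0.05) and no receptor.

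**Figure D4:**
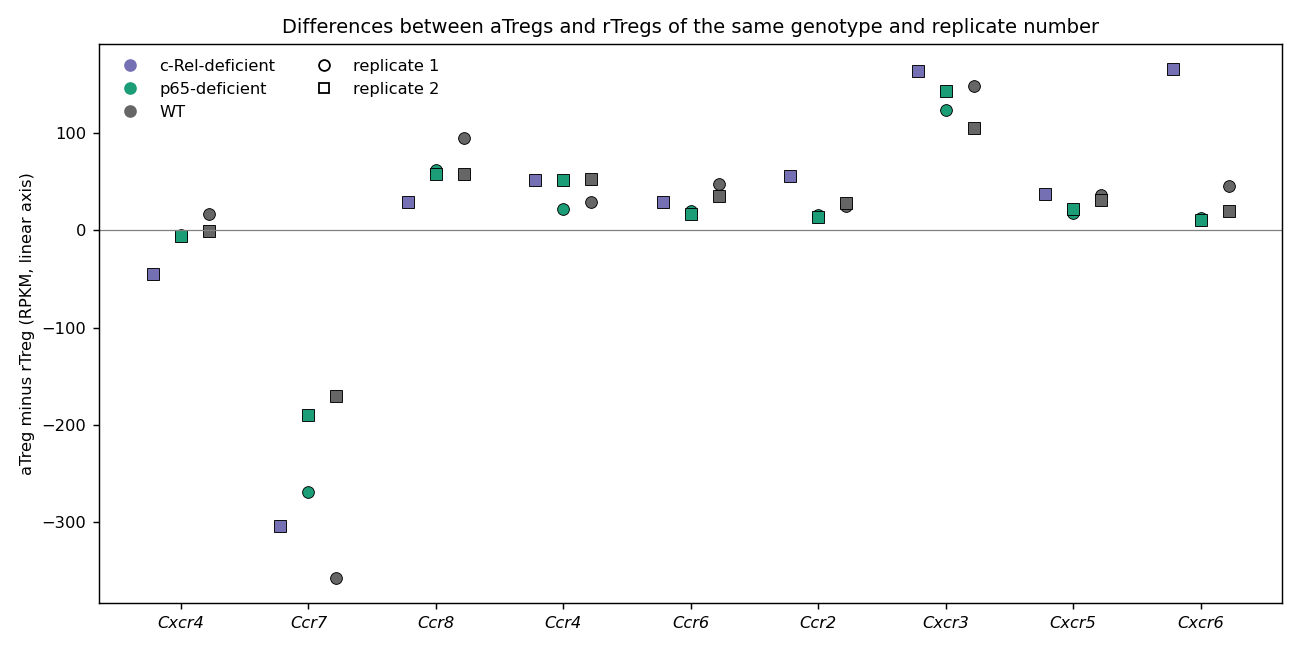
Difference between the aTreg and the rTreg library of the same genotype and replicate number, in RPKM on a linear axis, for the 9 receptors. Of the c-Rel-deficient libraries only number 2 forms a pair; Ccr7 is below 0 in all 5 pairs, and 7 receptors are above 0 in all 5.

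In c-Rel-deficient aTregs, Ccr8 and Cxcr4 were below every WT aTreg library and Ccr2 was above every one, with non-overlap in 3 of 9 receptors and 25.6% of all genes. None passed in limma, which called 0% of genes (0 of 10656, 717 at an unadjusted p under 0.05), nor in the authors' deposited table, which calls 77 genes or 0.52%. Ccr8 was at 40.0 and 15.6 RPKM in c-Rel-deficient aTregs (numbers 2 and 3), against 104, 71.3 and 62.7 RPKM in WT aTregs. Both c-Rel-deficient libraries were below all 3 WT libraries, by 31.3 RPKM in number 2 and 47.1 RPKM in number 3 (log2 difference -1.61, SE 0.42, limma adjusted p = 0.330; authors' deposited table -1.11, adjusted p = 0.337). Cxcr4 was at 50.7 and 77.5 RPKM in c-Rel-deficient aTregs, against 92.0, 93.6 and 110.0 RPKM in WT aTregs. It too lay below every WT library, by 42.9 and 32.4 RPKM within numbers (-0.64, SE 0.19, limma adjusted p = 0.437).

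Cxcr6 was at 163 and 39.9 RPKM in c-Rel-deficient aTregs and at 62.4, 16.4 and 16.9 RPKM in WT aTregs. Within numbers the difference was 146 RPKM in number 2 and 23.0 RPKM in number 3, so that replicate 2 stood far above every other sorted library (log2 difference 1.62, SE 1.90, limma adjusted p = 0.941; authors' deposited table: 1.62, adjusted p = 0.0751). Ccr2 was at 56.8 and 34.0 RPKM in c-Rel-deficient aTregs and at 33.3, 29.2 and 3.06 RPKM in WT aTregs. Both c-Rel-deficient libraries were above all WT libraries, by 27.6 and 30.9 RPKM within numbers, and in the unlogged fit with replicate number as a term Ccr2 (30.0 RPKM, SE 1.70, adjusted p = 0.000517) and Cxcr4 (-41.4 RPKM, SE 5.33, adjusted p = 0.0156) were the receptors called, among 92 genes (0.863%). In that fit Ccr2 was also called in the test of the aTreg to rTreg difference (29.8 RPKM more than in WT, SE 2.48, adjusted p = 0.00782, with 0.131% of genes called); limma on the log scale gave Ccr2 an adjusted p of 0.887 between the aTregs and 0.903 for that difference, and the authors' deposited table gave 0.552 between the aTregs.

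Some markers of other cells were higher in these libraries than in WT aTregs, and others were not. Klrb1c, which encodes the NK cell antigen NK1.1, was at 25.0 and 3.60 RPKM in c-Rel-deficient aTregs, against 2.88, -0.0212 and 1.72 RPKM in WT aTregs. The summed RNA of 5 NK and cytotoxic markers was 33.7 and 14.3 RPKM against 2.98 to 9.43 RPKM in WT aTregs and 9.73 to 15.4 RPKM in WT rTregs. Of these markers Eomes was also higher (1.84 and 1.95 RPKM against -0.0643 to 0.582 RPKM in WT aTregs). Prf1 (6.17 and 8.41 RPKM against 1.73 to 6.18 RPKM) and Ncr1 overlapped with WT aTregs. Gzma was lower, at 0.439 and 0.363 RPKM against 0.694 to 0.987 RPKM. The 9 listed markers of myeloid and dendritic cells summed to 12.0 and 6.77 RPKM in c-Rel-deficient aTregs, against 2.83 to 5.22 RPKM in WT aTregs. Of these, Siglech of plasmacytoid dendritic cells was at 4.34 and 2.97 RPKM, against at most 0.719 RPKM in WT aTregs, while the monocyte receptor gene Csf1r was at most 0.341 RPKM in any sorted library. Itgax was also higher (2.26 and 0.786 RPKM against at most 0.310 RPKM), whereas Lyz2, Itgam, Zbtb46, S100a8 and S100a9 overlapped with WT aTregs. Tbx21 was at 30.6 and 11.0 RPKM, against 17.4, 8.19 and 6.46 RPKM in WT aTregs. The part of NK, myeloid or dendritic cells in the Cxcr6 and Ccr2 values was not tested. Ccr7 was higher in c-Rel-deficient than in WT aTregs in both shared numbers, by 50.7 and 100.8 RPKM (0.98, SE 0.44, limma adjusted p = 0.741).

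In p65-deficient aTregs, Cxcr4 was the only receptor whose libraries did not overlap with WT (80.4 and 91.5 RPKM, against 92.0 to 110.0 RPKM), as was the case for 21.6% of all genes. Limma called 0% of genes (0 of 10656, 365 at an unadjusted p under 0.05) and the authors' deposited table called 0.196% (29 genes), no receptor among them. Ccr6 was at 25.0 and 22.8 RPKM in p65-deficient aTregs, against 57.6 and 44.6 RPKM in the WT aTregs of the same numbers and 19.7 RPKM in WT replicate 3. Within numbers it was lower by 32.6 and 21.8 RPKM (log2 difference -0.62, SE 0.36, limma adjusted p = 0.998; authors' deposited table -1.06, adjusted p = 1). Cxcr5 was at 29.6 and 28.1 RPKM, against 49.3 and 41.0 RPKM in the same numbers of WT, lower by 19.7 and 12.9 RPKM (-0.28, SE 0.36, limma adjusted p = 0.998; authors' deposited table -0.84, adjusted p = 0.573). In both numbers 6 receptors were lower and Ccr7 was higher, Ccr7 by 69.4 and 72.8 RPKM. Ccr8 and Cxcr3 differed in sign between the numbers, and the share of all genes with the same sign in both was not counted. The difference of Ccr8 was -32.4 RPKM in number 1 and 1.40 RPKM in number 2.

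In rTregs, where most of these receptors were low, limma called 0% of genes for p65 (0 of 10656, 726 at an unadjusted p under 0.05) and 0% for c-Rel (0 of 10656, 775 at an unadjusted p under 0.05), and the authors' deposited table called 0.0337% (5 genes) and 0.027% (4 genes), none of them a receptor. Ccr6 was the only receptor whose rTreg libraries did not overlap with WT, at 5.63 and 6.23 RPKM without p65 and 8.42 and 5.36 RPKM without c-Rel, against 9.93 and 9.12 RPKM in WT. Neither difference passed (-0.64, SE 0.40, limma adjusted p = 0.808 for p65, and -0.47, SE 0.40, limma adjusted p = 0.850 for c-Rel). Non-overlap was seen in 31.2% of all genes for p65 and 26.5% for c-Rel. Ccr7 was at 401 and 366 RPKM without p65, 326 and 459 RPKM without c-Rel and 420 and 274 RPKM in WT, with all 3 groups overlapping.

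In the sorted set 10 of the 16 ligands were listed and 2 were tested. Ccl1 was higher in WT aTregs than in WT rTregs (log2 difference 2.34, SE 0.66, limma adjusted p = 0.0459), and so was Cxcl10 (2.57, SE 0.42, limma adjusted p = 0.0109). Beside 12.2% of all genes called, 5 of the 12 transcription factors were higher (Prdm1, Hif1a, Bcl6, Batf and Gata3) and Klf2 was lower, at 91.7, 83.8 and 191 RPKM in aTregs against 304 and 295 RPKM in rTregs (-1.39, SE 0.39, limma adjusted p = 0.0445). Tbx21 was at 17.4, 8.19 and 6.46 RPKM in aTregs against 3.69 and 0.674 RPKM in rTregs and was not called (2.21, SE 0.78, limma adjusted p = 0.0835). Of 35 tested signalling genes 2 were higher, Rgs16 (1.94, SE 0.30, limma adjusted p = 0.00868) and Gnaq (1.41, SE 0.36, limma adjusted p = 0.0371), and 1 was lower, Rgs19 (-0.79, SE 0.20, limma adjusted p = 0.0365). Of 6 other chemokine receptors tested, Ccr3 (2.38, 2.77 and 1.00 RPKM against 0.426 and 0.0923 RPKM, limma adjusted p = 0.0237) and Ccrl2 (12.1, 10.9 and 6.66 RPKM against 2.71 and 2.31 RPKM, limma adjusted p = 0.0105) were higher in WT aTregs. Ccr9 (0.588 to 2.39 RPKM in WT aTregs against 1.77 and 3.17 RPKM in WT rTregs), Ccr10 and Xcr1 were also measured and not called between the WT subsets. Without p65, aTregs against rTregs gave 4 factors, 1 signalling gene, 1 ligand and 2 other receptors higher and none lower, beside 3.17% of all genes called.

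The order of the levels differed between the sets, which were normalised separately and are not compared by value. With water, stimulated WT Tregs had Ccr7 (324 ± 55.7 RPKM, SD, n = 2) and Ccr8 (278 ± 103) at the top, not separable by their spread, then Ccr4 (90.3 ± 10.3), Cxcr4 (50.4 ± 0.813) and Cxcr3 (39.8 ± 1.50). Cxcr6 (21.9 ± 5.21), Ccr6 (17.5 ± 1.89), Ccr2 (15.9 ± 6.76) and Cxcr5 (13.04 ± 2.99) followed, with neighbours within their spread. With pentoxifylline Cxcr4 (218 ± 56.9) stood in the second place, above Ccr8 (96.9 ± 18.6), and in c-Rel-deficient Tregs the first 6 places were those of water. Sorted WT rTregs were led by Ccr7 (347 ± 103) and Cxcr4 (84.7 ± 13.9), and every other receptor was below 25 RPKM in both libraries. These others are not ranked, since the rTreg values of all of them but Ccr6 separate by replicate number. In WT aTregs Ccr7 (123 ± 71.3, n = 3), Cxcr3 (114 ± 57.8), Cxcr4 (98.5 ± 9.93) and Ccr8 (79.2 ± 21.6) were at the top and differed by less than their spread, and Ccr2 (21.9 ± 16.4) was the lowest.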

How the data were processed

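RNA of 19 Treg libraries was sequenced after TruSeq preparation, per the labels' protocols; the submitters' processing notes name STAR, DESeq2 1.10.1 and mm10. Per the file headers, each of the 2 deposited tables holds the authors' RPKM, log2 fold changes and p-values; numbers with decimal commas were read as points. The deposited sorted values carry an adjustment by replicate number that no header describes, and 2.53% of them lie below 0. All columns of library values were used. RPKM below 0 were taken as 0, a pseudocount of 0.5 was used, and the log2 scale was tested two-sided in limma 3.58.1 (R 4.3.3; group means, eBayes with trend) over all genes that reached 1 RPKM in 2 or more libraries, with Benjamini-Hochberg adjustment. The deposited p-values were adjusted in the same way over genes with values. Tables were handled in Python 3.11.15 with pandas 2.3.3 and numpy 2.4.6, and figures drawn in matplotlib 3.10.9. The procedure was tested on simulated data.

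The 9 genes and all lists were chosen with earlier results of these data known. Named beside them were, of each list, up to 4 genes past the threshold with no overlap of libraries and the largest changes, other chemokine receptors with a group mean of at least 1 RPKM, and Foxp3, Rel and Rela. Foxo1, Bcl6, Klrb1c, Siglech, Csf1r, Ikzf2, Tcf7 and Eomes, and uncalled values of Ccl22, Ccl20 and Tbx21, were chosen after their values were seen. So were the other single markers named from the myeloid and dendritic and the NK and cytotoxic lists. Alternatives were pseudocounts of 0.1 and 1, no filter, a filter of 3 RPKM, median-of-ratios scaling, a block for replicate number, and omission of each library in turn; an unlogged fit with replicate number, and leaving out both libraries numbered 3, were added after the data were seen. Some genes that these rules would name are not reported here.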

Additional observations from a re-analysis of the deposited data

How the results depend on the processing

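The 6 stimulated libraries gave 7 receptors called with pentoxifylline against water, 6 with a pseudocount of 0.1 and 6 with median-of-ratios scaling (Cxcr6 lost in each), 4 with no filter and 2 to 7 on leaving out 1 library, with 2232 to 4282 genes. For c-Rel-deficient against water the genes called were 3 with no filter and 0 to 284 on leaving out 1 library. Between pentoxifylline and c-Rel-deficient cells 3 receptors were called with no filter, and 3 to 6 receptors and 3027 to 4580 genes on leaving out 1 library. In sorted cells, leaving out 1 library gave 1 to 5 receptors and 83 to 2963 genes for WT aTregs against rTregs, 0 to 4 and 0 to 806 for p65-deficient, and 0 to 3 and 0 to 179 for c-Rel-deficient; it gave 0 to 2 genes for p65-deficient and 0 to 13 for c-Rel-deficient against WT aTregs, and 0 to 2 for the c-Rel difference of differences. With no filter 1 gene was called for p65-deficient and 40 for c-Rel-deficient against WT aTregs. Without both libraries numbered 3 the counts were 2203 genes for WT, 5 receptors and 854 genes for p65-deficient, and 3 receptors and 228 genes for c-Rel-deficient aTregs against rTregs. The unlogged fit with replicate number gave 628 genes for p65-deficient and 6 receptors and 777 genes for c-Rel-deficient aTregs against rTregs, 6 genes for p65-deficient and 2 receptors and 92 genes for c-Rel-deficient against WT aTregs, and 1 receptor and 14 genes for the c-Rel difference of differences. The cause of these changes was not tested. No direction reversed among called values.

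With the replicate block on the log scale the counts were 8 receptors and 4595 genes for pentoxifylline against water, Ccr4 being the receptor added (-0.68, limma adjusted p = 0.0247), 1 gene for c-Rel-deficient against water, 8 receptors and 2077 genes for WT, 5 and 731 for p65-deficient and 8 and 901 for c-Rel-deficient aTregs against rTregs, 1 gene for p65-deficient and 44 for c-Rel-deficient against WT aTregs, and 3 for the c-Rel difference of differences. Replicate numbers were not taken as pairs in the main fits. Differences of replicate 1 minus replicate 2, taken over genes, correlated between groups at 0.40, 0.115 and -0.07 in the stimulated set and at -0.38 to 0.44 in the sorted set. The sorted values were already adjusted by replicate number, so the correlations there cannot decide whether the numbers are pairs. Where an arm was left with 1 library, its spread was assumed to be that of the other groups. Depth of the sorted libraries is unknown, which limits the reading of values near 0.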

Other observations

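The genes most like each receptor across the 6 sorted groups were found by the root mean square difference of centred log2 group means over 8347 genes, which is a description of 6 means that share libraries and replicate numbers. Ccr7 lay closest to Txk (0.09), a T cell kinase, and Sgk3 (0.14). Cxcr5 lay closest to Cd44 (0.09), which encodes the sorting antigen of activated cells, and Naip5 (0.14), and Ccr6 to Ahnak (0.13) and Zcchc18 (0.16). Cxcr3 lay closest to S100a6 (0.13) and Myo1f (0.17), and Ccr4 to Il18rap (0.20) and the same Myo1f (0.21). Ccr8 was nearest to Il9r (0.18), and Cxcr4 to Atp10d (0.09) and Rbak (0.09). Ccr2 was nearest to Tbx21 (0.21), and Cxcr6 to Ccr2 (0.58) and Tbx21 (0.69), distances larger than those of the other receptors.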
